A study of Mus musculus with 12 samples.

Results

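The 10 genes described here encode proteins of neutrophil granules and cytosol (S100a8, S100a9, Ngp, Camp, Ltf, Mpo, Retnlg and Mmp8), the cytokine G-CSF (Csf3) and its receptor (Csf3r). They were chosen by name: all 12 array probes that carry 1 of these gene names were used, of 55681 probes and 34797 names on the array. Messenger RNA was measured in aortic tissue of male mice with 12 one-colour arrays, 3 in each of 4 groups. The study's methods give an age of 11 to 14 weeks for all its animal experiments. They credit these arrays to an earlier publication, so whether that age holds for these mice was not checked. The mice were of mixed 129S5/SvEvBrd, C57BL6 and SJL strain, and all of them, controls included, were homozygous for a floxed Socs3 allele that had been backcrossed to C57BL/6J for 3 generations. The WT groups had no Cre, and the smSocs3-KO groups carried a Cre transgene driven by the SM22 promoter, which is active in smooth muscle. Whether Cre also acted in other cells, neutrophils included, was not examined. In each genotype, 1 group was sampled before challenge and 1 group after 3 days of simultaneous infusion of BAPN (β-aminopropionitrile, an inhibitor of collagen and elastin crosslinking) at 150 mg/kg/day and AngII (angiotensin II, a pressor hormone) at 1000 ng/kg/min from osmotic minipumps.

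As background, neutrophils are made in the bone marrow under the control of G-CSF, which acts through its receptor and the transcription factor Stat3, and Socs3 is the feedback inhibitor of that receptor. Granule proteins are made in a fixed order as the cell matures: myeloperoxidase (Mpo) goes into primary granules at the promyelocyte stage, lactoferrin (Ltf), cathelicidin (Camp) and Ngp into secondary granules later, and the collagenase Mmp8 into secondary and tertiary granules, after which their transcription stops. S100a8 and S100a9 are the subunits of calprotectin, which fills the cytosol of mature neutrophils and whose transcripts remain in circulating cells, as do those of the resistin-like protein Retnlg. Mature neutrophils in tissue carry transcripts of these cytosolic genes and of surface receptors and cytokines.

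Socs3, the targeted gene, had no lower mean signal on arrays labelled smSocs3-KO than on WT arrays. Its log2 signal relative to the 75th percentile of the array, the scale of all levels given here, was 0.30, 0.32 and 0.75 in WT before challenge, 2.21, 2.30 and 0.64 in WT at day 3, 0.24, 1.14 and 1.46 on the arrays labelled smSocs3-KO before challenge and 3.31, 2.28 and 4.13 at day 3. The position of its probe relative to the deleted part was not examined, and the genotype is given below as labelled. Slide 1 held all 6 WT arrays together with smSocs3-KO before replicate 1, and slide 2 held the remaining 5 smSocs3-KO arrays. A genotype difference at day 3 and a difference between slides therefore cannot be told apart. Nothing in the labels says whether arrays of a group came from separate mice, and if they did not, p-values measure only the spread between arrays. In bulk tissue, fewer cells of a type and less RNA per cell cannot be told apart.

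Of the 10 genes, 5 were tested because a probe of theirs was well above background throughout at least 1 group: Csf3r, Mpo, Camp, S100a8 and S100a9. Csf3, Ltf, Ngp, Mmp8 and Retnlg did not, and their levels are bounds on most arrays. The lowest signal that counted as well above background lay between −4.93 and −3.85 on the log2 scale, depending on the array.

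**Figure D1:**
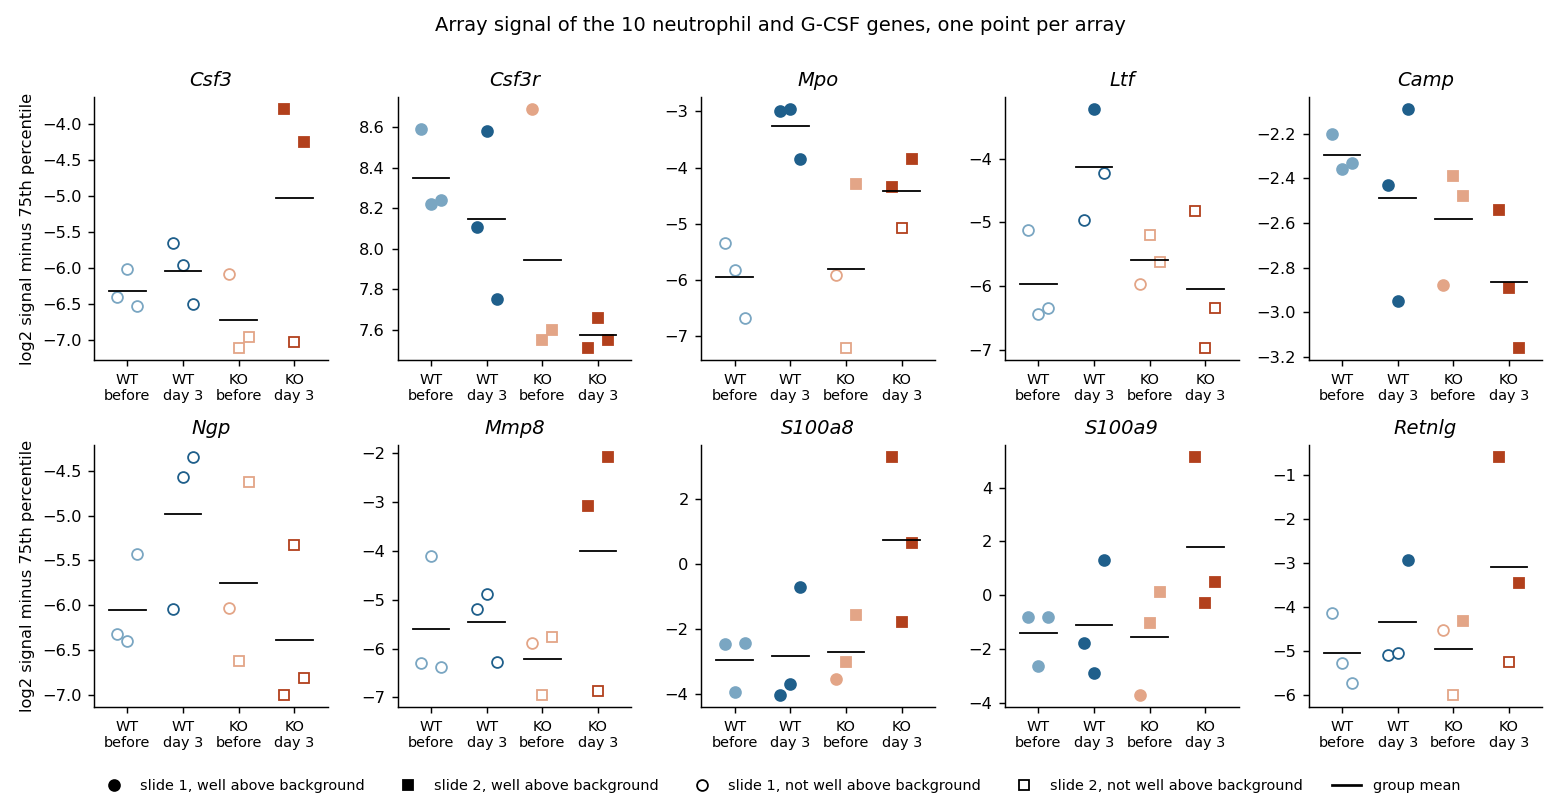
Log2 signal minus the 75th percentile of the array (vertical axes, a separate scale for each gene) of the 10 genes on the 12 arrays, by group (KO, labelled smSocs3-KO); filled points were well above background and open points were not, circles are slide 1, squares are slide 2 and lines are group means. S100a8 and S100a9 were highest on smSocs3-KO day 3 replicate 2, Mpo was above background on all 3 WT day 3 arrays, and Csf3r was between 7.51 and 7.66 on all 5 arrays of slide 2.

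The message of G-CSF itself appeared on 2 of the 12 arrays. Csf3 was well above background on smSocs3-KO day 3 replicates 2 and 5, at −3.80 and −4.25, and not on replicate 3, at −7.03. It was below background on all 6 WT arrays and on all 3 arrays labelled smSocs3-KO before challenge. The mean of the day 3 group did not exceed the detection floor of the group before challenge, so no fold is given, and the groups overlapped. Of the cytokines that are known to induce Csf3, Il17a was below background on all 12 arrays, while Tnf was above it on WT day 3 replicate 1 and on smSocs3-KO day 3 replicates 2 and 5.

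The probe named Csf3r was bright on every array and moved with the slide. Its levels were 8.59, 8.22 and 8.24 in WT before challenge, 8.11, 8.58 and 7.75 in WT at day 3, 8.69, 7.55 and 7.60 on the arrays labelled smSocs3-KO before challenge, and 7.51, 7.66 and 7.55 at day 3. The 8.69 is the array on slide 1, so that the 7 arrays of slide 1 lay between 7.75 and 8.69 and the 5 arrays of slide 2 between 7.51 and 7.66, without overlap. Processed signals before that subtraction did overlap, at 74000 to 97700 on slide 1 and 71500 to 81100 on slide 2. The 74000 is smSocs3-KO before replicate 1, the lowest of slide 1. The gap between slides and the rank of that array thus depend on the percentile subtracted. The probe (chr4:125721478-125721537, mm9) ranked between the 99.4th and the 99.9th percentile of all probes of an array. Its last 30 bases are shown because the 17 in capitals recur on 2 other probes of the array, and as background their letters are those of the mouse B1 family of short interspersed repeats:
Csf3r probe, 3′ end: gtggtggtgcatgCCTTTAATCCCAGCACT
One of the others is named Slc10a1, a bile acid transporter of liver, and the other, TC1653005, is an unnamed transcript that shares all 30 bases. Both ranked at or above the 99.7th percentile on every array, and over the 12 arrays their signals had a Pearson r of 0.966 and 0.991 with that of the Csf3r probe, as a description over arrays that share slides. The probe of Itgam, the integrin chain CD11b, whose longest run in common with the Csf3r probe was 6 bases, had an r of 0.957 with it and was also higher on slide 1 (6.94 to 8.22) than on slide 2 (6.38 to 6.84). The percentile subtracted from an array is the same for all of these probes, and its part in these r values was not tested. How much of the signal of the Csf3r probe comes from Csf3r was not tested. A slide term in the fit can rest only on smSocs3-KO before replicate 1, since no other array shares its genotype on slide 1. With slide as a block in the fit, the genotype difference of Csf3r changed sign, from −0.40 to 0.35 before challenge and from −0.57 to 0.55 at day 3, and none of these passed limma's test (adjusted p = 1.0 and 0.386 without the block, 0.729 and 0.473 with it, and between 0.163 and 1.0 over all alternatives of both).

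**Figure D2:**
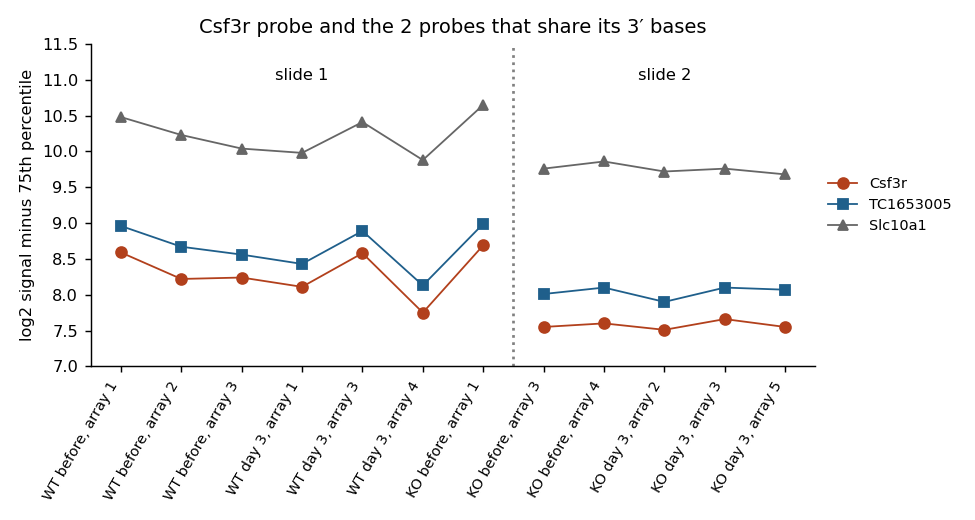
Log2 signal minus the 75th percentile (vertical axis) of the probe named Csf3r and of the 2 probes that hold the same 17 bases, on each array (horizontal axis, KO, labelled smSocs3-KO), with the arrays of slide 1 left of the dotted line. On this scale the 3 lines run in parallel, and all 3 were highest on smSocs3-KO before replicate 1, the only array of that genotype on slide 1. On that array the processed Csf3r signal before the subtraction was the lowest of slide 1.

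Mpo, the peroxidase of primary granules, was the only gene of the 10 that passed the test in any comparison. It was below background on all 3 WT arrays before challenge (−5.35, −5.83 and −6.67) and above it on all 3 at day 3 (−2.99, −2.96 and −3.84), and the groups did not overlap. On the arrays labelled smSocs3-KO it was above background on 1 of 3 before challenge (−5.92, −7.21 and −4.29, the last of these) and on 2 of 3 at day 3 (−4.35, −5.07 and −3.84), and these groups overlapped. Against the floor of the WT group before challenge, Mpo was at least 2.11-fold higher at day 3, with a measured difference of 2.69 (SE 0.64, n = 3 arrays each, limma adjusted p = 0.0431). It was kept only through WT at day 3, the group where it is high, so it had to differ there. The adjusted p lay between 0.0224 and 0.245 over the alternatives, and 8 of 21 kept the call. Leaving out any array other than WT day 3 replicate 4, smSocs3-KO before replicate 1 or smSocs3-KO before replicate 3 lost it. Without a WT before array, WT day 3 replicate 1 or 3 or smSocs3-KO before replicate 4, only 0 to 3 of all genes were called in the WT response. With normexp background correction, which adds an offset of 50, the Mpo difference was 0.46. Processed Mpo signals in WT at day 3 were 24.3 to 44.6, below that offset, which narrows log2 differences of dim probes by construction. In the arrays labelled smSocs3-KO the response was 1.39 (SE 0.64, adjusted p = 0.216), and the interaction, which tests whether the responses differ, was −1.30 (SE 0.91, adjusted p = 0.97). A further Mpo probe was above background only on WT day 3 replicate 1.

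The other primary granule genes varied in their WT response. Elane, neutrophil elastase, was above background on all 12 arrays and differed by 0.11 (SE 0.19, adjusted p = 0.73) in the WT response and by 0.03 (SE 0.19, adjusted p = 0.942) in the response of the arrays labelled smSocs3-KO. Prtn3 and Ctsg, which promyelocytes make together with Mpo, were above background on 1 and on 4 of the 12 arrays, none of them a WT day 3 array, and Bpi on none. Ctsc, which activates granule proteases and is also made by macrophages, rose in WT by 1.45 (SE 0.31, adjusted p = 0.0361) and in the arrays labelled smSocs3-KO by 1.61 (SE 0.31, adjusted p = 0.0346). Serpinb1a, an inhibitor of granule proteases, was at 0.67, 0.82 and 0.70 in WT before challenge and at 4.06, 3.07 and 1.12 at day 3, a difference of 2.02 that did not pass limma's test (SE 0.59, adjusted p = 0.0678).

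The secondary granule genes gave little signal. Camp was above background on all 12 arrays and stayed within a narrow range, from −3.16 on smSocs3-KO day 3 replicate 5 to −2.09 on WT day 3 replicate 4. Its differences were −0.20 (95% interval −0.73 to 0.34) in the WT response, −0.28 (−0.81 to 0.25) in the response of the arrays labelled smSocs3-KO and −0.37 (−0.90 to 0.16) between genotypes at day 3, all with a limma adjusted p of 0.484 or more. The other Camp probe disagreed in sign before challenge, where the genotype difference was −0.29 by the probe tested and 0.23 by the other. Ngp was below background on all 12 arrays. Ltf was above it on WT day 3 replicate 3 alone, at −3.22, while the others of that group were at −4.96 and −4.23 and all 3 WT arrays before challenge at or below −5.11, so that Ltf was at least 1.16-fold higher in WT at day 3 on the basis of 1 measured array. Ltf was below background on all 6 arrays labelled smSocs3-KO. Mmp8 was above background on smSocs3-KO day 3 replicates 2 and 5, at −3.09 and −2.07, and not on replicate 3, at −6.86, nor on any of the 9 arrays of the other groups. Against the floor of the smSocs3-KO group before challenge its day 3 mean was at least 1.41-fold higher, but the groups overlapped.

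S100a8 and S100a9 had the widest range of the 10 genes on the arrays, and smSocs3-KO day 3 replicate 2 was the highest for both. S100a8 was at −2.45, −3.94 and −2.41 in WT before challenge and at −4.04, −3.69 and −0.71 in WT at day 3, where replicate 4 was above the others. On the arrays labelled smSocs3-KO it was at −3.53, −3.00 and −1.55 before challenge and at 3.32, −1.77 and 0.67 at day 3. The day 3 arrays of this genotype thus spread over more than the difference between its groups, and replicate 3 lay below the highest array before challenge. S100a9 was at −0.82, −2.63 and −0.81 in WT before challenge, at −1.79, −2.89 and 1.32 in WT at day 3, at −3.73, −1.05 and 0.10 on the arrays labelled smSocs3-KO before challenge and at 5.15, −0.28 and 0.50 at day 3. For S100a9 too, smSocs3-KO day 3 replicate 3 lay below an array before challenge, and the highest WT array was again day 3 replicate 4.

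Group means of both genes were higher in the arrays labelled smSocs3-KO at day 3, and neither passed the test. The response to challenge in that genotype was 3.43 for S100a8 (SE 1.20, 10.8-fold, 95% interval 0.77 to 6.09, limma adjusted p = 0.131) and 3.35 for S100a9 (SE 1.51, 10.2-fold, 95% interval 0.02 to 6.69, adjusted p = 0.208). In WT the response was 0.12 for S100a8 (SE 1.20, adjusted p = 0.957) and 0.30 for S100a9 (SE 1.51, adjusted p = 0.914). Between genotypes at day 3 the difference was 3.55 for S100a8 (SE 1.20, 11.7-fold, adjusted p = 0.193) and 2.91 for S100a9 (SE 1.51, 7.53-fold, adjusted p = 0.375). The interaction was 3.31 (SE 1.70, adjusted p = 0.957) and 3.05 (SE 2.14, adjusted p = 0.97), with intervals that include 0. None of the 22 alternatives brought an adjusted p for the smSocs3-KO response under 0.05, the lowest being 0.0651 for S100a8 and 0.16 for S100a9. Without smSocs3-KO day 3 replicate 2, that response was 2.14 for S100a8 and 1.67 for S100a9, and within slide 2 it was 3.01 and 2.27. Also without smSocs3-KO day 3 replicate 2, the difference between genotypes at day 3 was 2.26 for S100a8 and 1.23 for S100a9. With slide as a block, the difference of S100a9 between genotypes at day 3 was −0.35 in place of 2.91 (SE 2.58, 95% interval −6.12 to 5.43). That of S100a8 was 2.30 (SE 2.24, 95% interval −2.70 to 7.31). The slide term in this fit rests on smSocs3-KO before replicate 1, the only smSocs3-KO array on slide 1 and the lowest array for S100a9. It cannot separate genotype from slide.

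**Figure D3:**
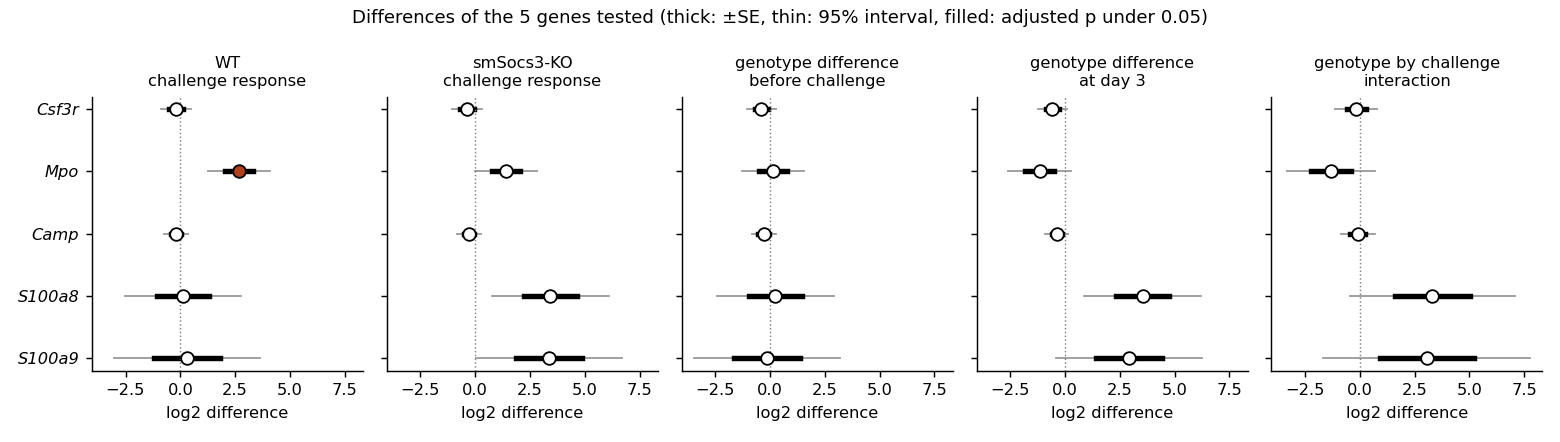
Log2 differences (horizontal axes) of the 5 genes tested in each comparison, with ±SE as a thick line and the 95% interval as a thin line, from 3 arrays per group; the filled point passed an adjusted p of 0.05. Mpo in the WT response was the only one to pass, and the intervals of S100a8 and S100a9 span several log2 units.

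Both genes nevertheless followed each other from array to array. Over the 12 arrays their levels had a Pearson r of 0.938 and a Spearman rho of 0.923 (permutation test with 100000 resamples, p = 5e-05 for each, adjusted over 10 pairs of genes 0.0005). For every pair, the permutations took the arrays as exchangeable although they fall into groups and slides. These p-values therefore do not test a relation within groups. Without the 2 arrays farthest from the median of S100a8, r was 0.9, over the 7 arrays of slide 1 it was 0.888, and after the group means were taken out it was 0.919. The 5 arrays of slide 2 are too few for a value of their own. Mpo had an r of 0.205 with S100a8 and of 0.187 with S100a9 (permutation p = 0.536 and 0.573). Camp had an r of −0.108 with S100a8 and of 0.167 with S100a9 over the 12 arrays (permutation p = 0.747 and 0.615), but within slide 1 these were 0.639 and 0.844, and after the group means were taken out 0.613 and 0.839, so that Camp and calprotectin transcripts varied together within groups, without a test. The Csf3r probe ran opposite to S100a9, with r = −0.708 and rho = −0.699 (permutation p = 0.00439 and 0.0148, adjusted 0.0219 and 0.074), r = −0.658 without the farthest 2 arrays and −0.741 within slide 1. After the group means were taken out it was −0.616. Levels of both probes carry the percentile subtracted from the array, and its part in this r was not tested. Retnlg, which was not tested, was above background on 4 arrays, WT day 3 replicate 4 (−2.92), smSocs3-KO before replicate 4 (−4.31) and smSocs3-KO day 3 replicates 2 and 5 (−0.57 and −3.45). In each of these 3 groups, these included the array that was highest for S100a8.

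**Figure D4:**
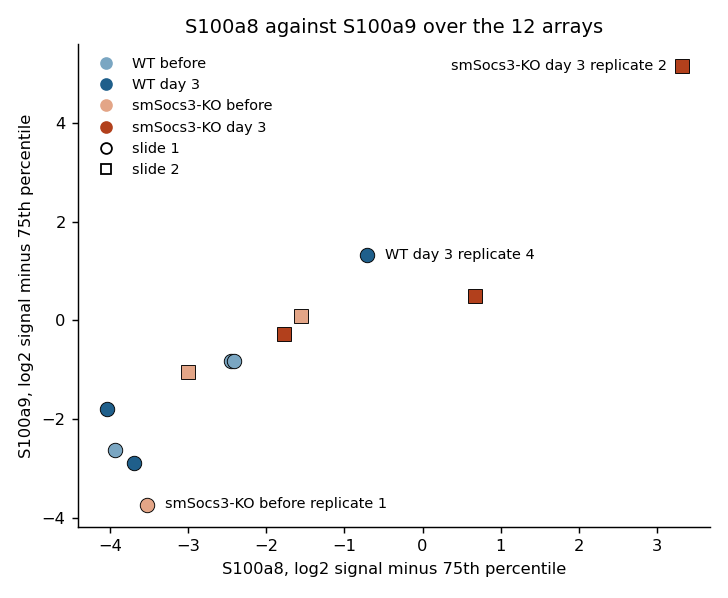
Levels of S100a8 (horizontal axis) and S100a9 (vertical axis) on the 12 arrays, both as log2 signal minus the 75th percentile, coloured by group, with circles for slide 1 and squares for slide 2. Levels of both genes went together (r = 0.938), and smSocs3-KO day 3 replicate 2 is the point at the upper right, at 3.32 and 5.15.

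The probe and the promoters of this pair are shown because these members moved together. The S100a8 probe (chr3:90473778-90473837, mm9) lies in coding sequence, as background that of the C-terminal calcium-binding loop. The promoters are the 250 bases before the start site in RefSeq (GRCm38.p6), S100a8 at chr3:90668821-90669070 on the plus strand and S100a9 at chr3:90695722-90695971 on the minus strand, with motif matches in capitals:
S100a8 probe: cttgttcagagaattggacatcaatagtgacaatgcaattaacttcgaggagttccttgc
S100a8 promoter: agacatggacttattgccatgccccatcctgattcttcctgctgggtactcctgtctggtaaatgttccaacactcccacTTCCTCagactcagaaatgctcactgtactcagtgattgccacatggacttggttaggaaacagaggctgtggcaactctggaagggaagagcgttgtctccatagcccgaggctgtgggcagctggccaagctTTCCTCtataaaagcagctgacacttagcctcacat
S100a9 promoter: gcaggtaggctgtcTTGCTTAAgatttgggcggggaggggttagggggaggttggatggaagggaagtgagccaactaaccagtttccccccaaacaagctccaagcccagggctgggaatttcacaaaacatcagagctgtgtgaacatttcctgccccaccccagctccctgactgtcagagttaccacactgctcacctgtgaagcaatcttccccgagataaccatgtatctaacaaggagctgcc
The motifs were searched on both strands, with no overlap between matches here: TTGCNNAA for C/EBP, GAGGAA for PU.1, both factors of granulocyte genes, and TTCNNNGAA for STAT. The S100a8 window held 2 PU.1 matches and the S100a9 window 1 C/EBP match. Of the 9 members with a promoter in the table, all but Csf3, 5 held a C/EBP match, 5 a PU.1 match and 0 a STAT match, against 9.56%, 23.3% and 7.02% of 32851 promoters of the same length. A match describes letters and is no evidence of binding.

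In numbers, 1 of the 5 members tested was called in the WT response at an adjusted p under 0.05, where 4.68% of 22761 genes were called. This was Mpo (higher), which was among the 5 only through WT at day 3. With no filter on dim probes its limma adjusted p was 0.0835. The same gene passed the threshold of the study's methods (p under 0.01 and a fold above 4 or below 0.25), which 1.28% of genes passed. In the other comparisons 0 members passed that threshold, against 1.63% of genes in the smSocs3-KO response, 0.242% before challenge, 1.11% at day 3 and 0.308% in the interaction. No member was called in the response of the arrays labelled smSocs3-KO (2.45% of genes), before challenge between genotypes (0.0264%), at day 3 between genotypes (1.11%) or in the interaction (0.0%). At an unadjusted p under 0.05, limma gave 1 member in the WT response, where 26.6% of genes passed, 2 in the smSocs3-KO response (23.8% of genes), 1 at day 3 between genotypes (16.2%), 0 before challenge (4.4%) and 0 in the interaction (5.33%). The median difference of the 5 was 0.12 in the WT response, 1.39 in the smSocs3-KO response, −0.14 before challenge and −0.37 at day 3, against −0.02, −0.06, 0.0 and −0.08 over all genes tested.

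Other genes of neutrophils and of the G-CSF pathway were described in the same way. These lists were chosen with earlier results of these data known, so the shares below are descriptions and no test of the lists. Some of the genes, such as Ctsc and Chi3l3, are also made by macrophages. Of 83 such genes on lists of granule, cytosol, surface, cytokine, signalling, chemokine and calprotectin receptor genes, 59 were tested. In the arrays labelled smSocs3-KO, 21 of the 59 rose with challenge and 0 fell (35.6%, against 2.45% of all genes tested, median 1.20). In WT, 4 rose and 0 fell (6.78%, median 0.60), a share near the 4.68% of all genes. At day 3 between genotypes, 8 were higher in the arrays labelled smSocs3-KO and 0 lower (13.6%, against 1.11% of all genes, median 1.01). Whether the responses differ was tested by the interaction, in which limma called 0 of the 59, as it called 0 of all genes. Of the 21, 4 (Fpr1, Fpr2, Il1r2 and Slfn4) passed the filter only through smSocs3-KO at day 3, the group where they are high, so they had to differ there, and the same holds for 2 of the 8 (Fpr2 and Slfn4). These counts depended on single arrays: the smSocs3-KO count fell to 1 without smSocs3-KO before replicate 3 or smSocs3-KO day 3 replicate 5, to 2 without smSocs3-KO before replicate 1, which is also the count with slide as a block, and to between 4 and 14 without 7 others (each WT before replicate, WT day 3 replicate 3, smSocs3-KO before replicate 4 and smSocs3-KO day 3 replicates 2 and 3). Without WT day 3 replicate 4 it was 30, and in WT 20 rose and 1 fell. The WT count was 0 without any 1 of the other 5 WT arrays or smSocs3-KO before replicate 4, 2 without smSocs3-KO day 3 replicate 3, and 7 with 2 lower without smSocs3-KO before replicate 1. In the fits just named with a WT count of 0, only 0 to 3 of all 22761 genes were called in the WT response. The day 3 count was 0 with slide as a block, 0 without WT day 3 replicate 3 or smSocs3-KO day 3 replicate 5, 3 without any 1 of the WT before arrays and 4 without smSocs3-KO day 3 replicate 2. Calls over all genes fell too. At day 3 between genotypes they were 0 with slide as a block, 50 without WT day 3 replicate 3 and 45 without smSocs3-KO day 3 replicate 5, against 253. In the smSocs3-KO response they were 42 without smSocs3-KO before replicate 3 and 51 without smSocs3-KO day 3 replicate 5, against 557. With slide as a block they were 52 in that response. With no filter on dim probes the 3 counts, in the order given above, were 4, 0 and 2, with only the groups compared in the fit 11, 0 and 1, and with the replicate number as a block all 0.

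**Figure D5:**
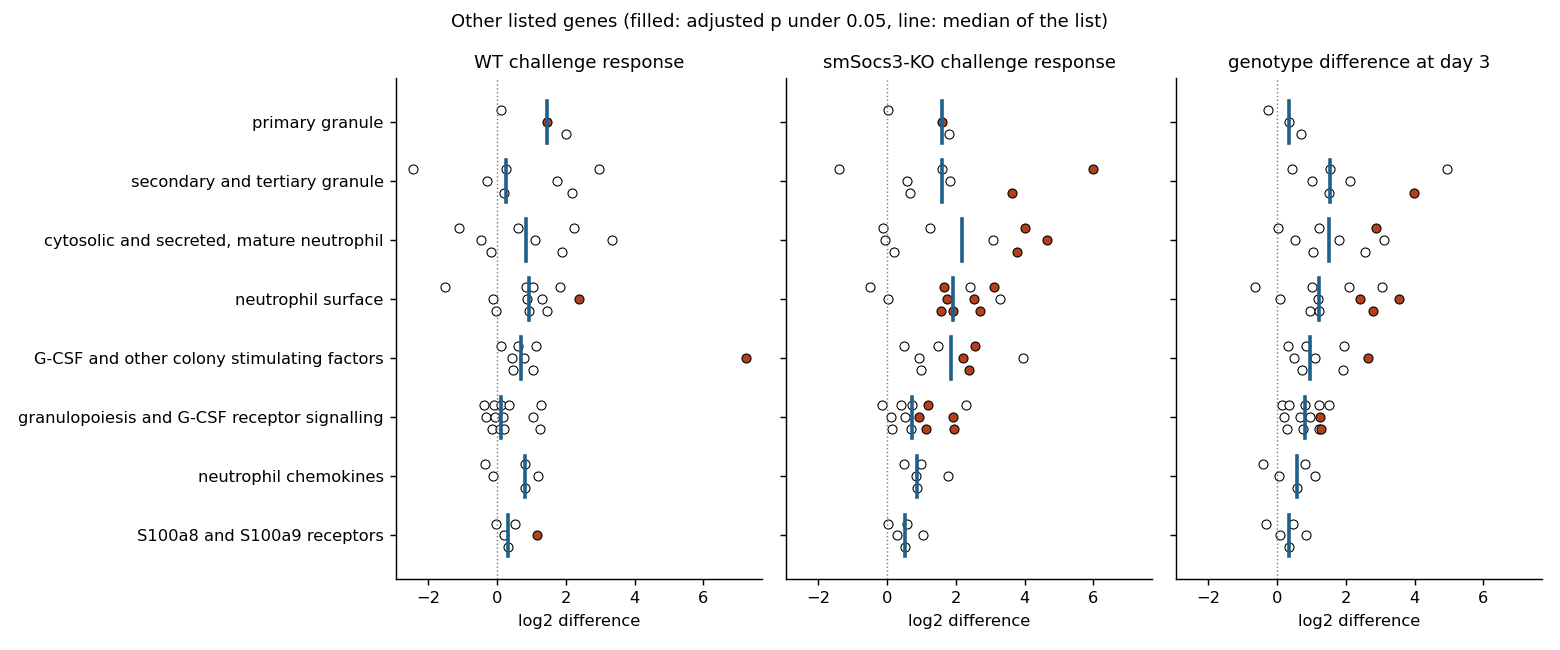
Log2 differences (horizontal axes) of the listed genes that are not among the 10, 1 point per gene and 1 row per list, in the WT response, the smSocs3-KO response and between genotypes at day 3; filled points passed an adjusted p of 0.05 and lines are list medians. In the smSocs3-KO response 7 surface genes passed, against 1 in the WT response.

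Among surface genes, 7 of 11 rose in the arrays labelled smSocs3-KO, a response in which 2.45% of all genes were called. Ly6g, which defines mouse neutrophils, rose there by 1.58 (SE 0.26, limma adjusted p = 0.0222), from −0.12, 0.36 and 0.48 to 1.60, 1.51 and 2.36, so that all 3 arrays at day 3 were above those before challenge. The 1.51 is replicate 3, where S100a8 was at −1.77 and Retnlg, Mmp8 and Csf3 were below background. Whether the Ly6g probe also reads related transcripts or other cells was not tested. In WT, Ly6g differed by 0.88 (SE 0.26, adjusted p = 0.0729). Of the 4 tested neutrophil markers that are not members, 2 were called in the smSocs3-KO response, Ly6g and Il1r2, and the median of the 4 was 0.72. Mmp9 and Trem1 were not called there. Their highest levels were before challenge, on smSocs3-KO before replicate 4 and on WT before replicate 2. The formyl peptide receptors guide neutrophils and macrophages to bacterial and mitochondrial peptides. Fpr1 was above background on all 3 smSocs3-KO arrays at day 3 and on 1 of 3 before challenge, with a measured difference of 3.10 (adjusted p = 0.0325). In WT it was above background on 0 of 3 arrays before challenge and on replicate 1 alone at day 3, which bounds it at 1.39-fold or more on the basis of 1 measured array (adjusted p = 0.0475). Fpr2, above background on 2 of 3 smSocs3-KO arrays before challenge and on all 3 at day 3, differed by 2.69 (adjusted p = 0.0387). Both receptor genes were kept only through smSocs3-KO at day 3, the group where they are high. At day 3, Fpr2, above background on 2 of 3 WT arrays, was 2.80 higher in the arrays labelled smSocs3-KO than in WT (SE 0.55, limma adjusted p = 0.0416), and the IgG receptor Fcgr4 was 2.42 higher (SE 0.39, adjusted p = 0.0219).

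Of the granule and cytosol genes, Chi3l3, a chitinase-like protein of neutrophils and of alternatively activated macrophages, rose by 6.00 in the arrays labelled smSocs3-KO (SE 1.06, limma adjusted p = 0.0251). Il1r2, a decoy receptor for interleukin 1, was below background before challenge and at least 12.5-fold higher at day 3 (adjusted p = 0.0428), and the interferon-induced Slfn4 at least 4.16-fold (adjusted p = 0.00439). Both were kept only through smSocs3-KO at day 3, so they had to differ there. Haptoglobin (Hp) rose by 3.64 (SE 0.77, adjusted p = 0.0399). Lipocalin 2 (Lcn2), a secondary granule protein that epithelia make too, was 3.98 higher in the arrays labelled smSocs3-KO than in WT at day 3 (SE 0.71, adjusted p = 0.0297), and 4.31 higher before challenge (SE 0.71, adjusted p = 0.133). Mmp9, gelatinase B, was above background on all 3 WT arrays before challenge (−3.00, −2.35 and −3.32) and on 0 of 3 at day 3 (−6.22, −6.10 and −3.72), at least 2.28-fold lower, and did not pass limma's test (adjusted p = 0.0545).

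Of the cytokines and receptors, Il6 was below background in WT before challenge (−5.97, −6.48 and −6.54) and at 2.65, 3.51 and −3.41 at day 3, so that replicate 4 was far below the others. It was at least 38.3-fold higher at day 3 (limma adjusted p = 0.0358), but 20.9-fold without replicate 1 (adjusted p = 0.165), 15.6-fold without replicate 3 (0.102) and 172-fold without replicate 4 (0.00035). Without any 1 of the WT before arrays the bound was 37.5 to 39.1-fold, and the call was lost (adjusted p = 0.0768 to 0.138). Without a WT before array or WT day 3 replicate 1 or 3, only 0 to 3 of all genes were called in the WT response. The β chain genes of the GM-CSF and IL-3 receptor family rose in the arrays labelled smSocs3-KO, Csf2rb by 2.57 and Csf2rb2 by 2.38, as did the IL-17 receptor Il17ra by 2.22. Of the factors that act downstream of the G-CSF receptor, Cebpa, Cebpb and Cebpd rose there by 0.93, 1.14 and 1.20, and Cebpb and Cebpd were also higher than in WT at day 3, by 1.28 and 1.25 (adjusted p = 0.0297 and 0.0473). Of the receptors of calprotectin, Ly96, the partner of Tlr4, rose in WT by 1.15 (adjusted p = 0.0302). Of the 10 genes of the neutrophil chemokine list, 5 were tested and 0 of them were called in any comparison by limma's test, while Cxcl2, Cxcl3, Cxcl15, Cxcr1 and Cxcr2 were below the filter.

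Genes of the mature cytosol and chemokine lists were mostly highest on a single array, and those of the surface list were not. Of the 16 genes of the mature cytosol and secretion list, 13 had their highest level on smSocs3-KO day 3 replicate 2, S100a8, S100a9, Retnlg and 10 of the 13 that are not members, and of the 10 chemokine genes 8 did, counting genes below the filter as well. Over tested genes alone these were 7 of 10 and 4 of 5, while 4.35% of all genes tested were highest there. Surface genes were split, with 5 of 13 highest there and 5 on smSocs3-KO day 3 replicate 5 (4 and 5 of the 12 tested). Replicate 2 was singled out after its values were seen. Cxcr2, the chemokine receptor that defines circulating neutrophils, was above background on that array and on replicate 5 only, and Stfa2l1, a stefin of neutrophils, likewise, whereas Cxcr1 and Stfa1 were above it on replicate 2 alone. The stefin genes are near-identical copies and their probes may share transcripts. Of the granulopoiesis and signalling list, 8 of 15 genes were highest on smSocs3-KO day 3 replicate 5, as were 5 of 14 secondary and tertiary granule genes, which over tested genes alone were 8 of 13 and 4 of 8, against 13% of all genes tested. Replicate 3 of that group held the highest level of 0 of the 10 members. In WT, day 3 replicate 4 was highest for 0 of the 83 other listed genes and for 2 members (Camp, and Ngp below background), against 9.11% of all genes tested, and over tested genes alone for 0 of 59 and for 1 of 5 members.

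Markers of other cells moved with these groups, and their part in the results was not tested. The summed linear signal of the 4 tested neutrophil markers that are not members, of 6 on the list, was 2.74 to 3.93 times the array's 75th percentile in WT before challenge. In WT at day 3 it was 3.54 to 3.88. On the arrays labelled smSocs3-KO the range was 3.49 to 3.94 before challenge, and at day 3 it was 4.92 to 8.20. That of the 9 macrophage markers was 49.6 to 51.3, 58.5 to 137, 50 to 74.4 and 150 to 153 in the same order, with 58.5 on WT day 3 replicate 4, the WT array with the highest S100a8. All 9 were measured, and 5 of them rose in the smSocs3-KO response. The 5 measured epithelial and mesothelial markers, of 6, which matter because such cells make Lcn2, S100a8 and S100a9, were at 3.98 to 22.6 and 2.83 to 13.7 in WT and at 27.3 to 58.1 and 29.5 to 48.0 in smSocs3-KO. Krt14 among them was 2.43 higher in the arrays labelled smSocs3-KO at day 3 (limma adjusted p = 0.0321). The 4 fat markers, beside Hp, were at 131 and 153 on smSocs3-KO day 3 replicates 3 and 5 and at 25.5 on replicate 2. The 6 measured red blood cell markers, of 8 on the array, which would mark blood in the sample, were at 822 to 1120, 1070 to 2010, 615 to 1020 and 303 to 1780, with 1780 on smSocs3-KO day 3 replicate 2 and 303 on replicate 5, and 0 of them were called in any comparison by limma's test. The 3 monocyte markers, all measured, were at 11 to 11.3 and 12.4 to 32.6 in WT and at 10.5 to 19.3 and 49 to 59.6 in smSocs3-KO, and 1 of them rose in the smSocs3-KO response. The 5 smooth muscle markers, which define the labelled tissue, were all measured, at 2660 to 2950 in WT before challenge against 2090 to 2620 at day 3, and at 2350 to 3530 against 1700 to 2010 in smSocs3-KO. Their sums thus did not overlap within either genotype, and 0 of them were called by limma's test. All 3 eosinophil markers were below the filter.

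The 8 genes most like the members, by Pearson r over the 12 arrays with the mean of the 5 tested members after each was standardised, among 19504 genes well above background on every array, were Gm15998 (0.823), Ncdn (0.815), Sh2b1 (0.797), Zfp771 (0.79), Ctif (0.771), Trim3 (0.77), Tnks1bp1 (0.754) and Klhdc3 (0.752). No gene of the neutrophil lists was among them, but listed genes below background on any array, such as Chi3l3, Il1r2 and Slfn4, could not enter. The mean also held the Csf3r probe, which ran opposite to S100a9. The ranking therefore does not describe likeness to neutrophil genes.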

How the data were processed

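Aortic RNA was hybridised to 12 one-colour Agilent arrays, 3 per group, with groups taken from the labels. The deposited intensity values are scanner output in which the authors' Feature Extraction software (10.7.1.1 per the file headers, 9.5.1.1 per the submitters' notes) had subtracted background. A processed table of linear, quantile normalized intensity that the authors deposited served as an alternative, with Spearman correlations of at least 0.99998 to the scanner values. Total counts do not exist for arrays, so their number limits the precision; 55.4% to 61.2% of spots were well above background and 0 were saturated.

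Processed signals were log2 transformed and the 75th percentile of each array subtracted. The filter retained probes with signals well above background throughout at least 1 group, and the brightest probe per gene was used. All 4 groups were fitted with limma (3.58.1, R 4.3.3) over 22761 genes, with Benjamini-Hochberg adjustment and calls at an adjusted p under 0.05. For a group below background, a fold is given as "at least", against the lowest signal well above background on each array. Correlations between members used permutation tests in Python (3.11.15).

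The members and the other gene lists were chosen with earlier results of these data known, and the values named are those of the members, of listed genes that passed the test or define a list, and of the 8 most similar genes. The scripts were tested on simulated data. Alternatives changed background correction, normalization, the filter, the choice of probe, moderation, the samples fitted, slide or replicate number as a block, and left out each array in turn. Background correction was normexp with an offset of 50, which narrows log2 differences of dim probes such as that of Mpo. Replicate numbers were not used as pairs, since deviations of arrays with the same number correlated between −0.40 and 0.46. Promoters were taken from RefSeq (GRCm38.p6), where 9 of the 10 members matched, and probes are placed on mm9 as in the scanner files.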

Additional observations from a re-analysis of the deposited data

How the results depend on the processing

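Most values kept their direction and their side of the threshold under the 22 alternatives, and the cause was not tested where they did not. The number of members called in the WT response was 0, not 1, with normexp background correction, with no filter on dim probes, with a filter on all 12 arrays, with only the groups compared in the fit and with the replicate number as a block, and 0 to 1 when arrays were left out in turn. Mpo, above background on 6 of the 12 arrays, is removed by the 12-array filter and could not be called there. At the methods' threshold the number was 0 with normexp and, for the same reason, with the 12-array filter, while trend and robust moderation gave 1 member at day 3 between genotypes. Leaving out arrays gave 0 to 1 there and in the smSocs3-KO response. Of all genes, 0 were called in the WT response with only the groups compared and with the replicate number as a block. The median of the members in the smSocs3-KO response was −0.09 with normexp, and at day 3 between genotypes 1.27 with the 12-array filter, which leaves out Mpo.

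Signs turned for small differences. With normexp, Mpo in the smSocs3-KO response was −0.09 and S100a9 before challenge 0.12. With quantile normalization and with the authors' table, the Csf3r interaction was 0.04. With slide as a block, a term that rests on smSocs3-KO before replicate 1 alone, Csf3r was 0.35 before challenge, 0.55 at day 3 and 0.20 in the interaction, S100a8 was −0.59 before challenge and S100a9 −0.35 at day 3. With the replicate number as a block, which does not pair these arrays, the WT response was −0.27 for S100a8 and −0.30 for S100a9, the difference before challenge −0.02 for Mpo and −0.15 for S100a8, and the Camp interaction 0.27. When arrays were left out in turn, the WT response lay between −0.40 and 0.03 for Camp, −0.93 and 0.73 for S100a8 and −0.92 and 1.19 for S100a9. The difference before challenge lay between −0.62 and 0.84 for Mpo, −0.33 and 0.66 for S100a8 and −0.97 and 0.95 for S100a9, and the interaction between −0.32 and 0.11 for Camp and −0.37 and 0.20 for Csf3r. With 3 arrays per group, and 5 of the 10 genes mostly below background, the size of a difference in those genes could at most be bounded.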
